A study of Mus musculus with 8 samples.

Results

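Satellite glia and non-myelinating Schwann genes were followed here through 10 transcripts, Gfap, Fabp7, Glul, Slc1a3, Apoe, Gja1, Sox10, Cdh19, Scn7a and L1cam, picked by symbol from the 25780 genes counted in mouse dorsal root ganglia. All 10 passed the filter on low counts, as did 20235 of the 25780 genes. The iKO mice were of genotype Avil-iCreERT2/AJwo and G9aflox/flox, so that Avil, a gene of sensory neurons, drives an inducible Cre against the floxed Ehmt2 gene, which encodes the histone methyltransferase G9a. The WT mice were littermates lacking Cre, and the labels do not say whether they carried floxed alleles. Mice of each genotype received CFA (complete Freund's adjuvant, which causes inflammation) or vehicle in the left paw, and ganglia were taken 14 days later. The 4 groups, iKO CFA, iKO vehicle, WT CFA and WT vehicle, held 2 libraries each, 8 in all. Age, sex, the dose of CFA, the side of the ganglia and whether each library was a single animal or a pool are not given in the sources used here, so p-values reflect only how these libraries vary, which may be technical.

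Dorsal root ganglia hold the cell bodies of sensory neurons, and each cell body is wrapped by satellite glia, which clear glutamate and potassium from the narrow space around it. Non-myelinating Schwann cells bundle the thin axons of many nociceptors without forming myelin. Both cell types arise from the neural crest under the transcription factor SOX10, and satellite glia are known to raise the intermediate filament protein GFAP after nerve injury or inflammation. Several of the 10 genes are not restricted to glia: L1cam is also made by neurons and Apoe also by macrophages.

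The stretches of DNA just upstream of Gfap and Fabp7 are shown because these were the only members that passed the test between CFA and vehicle in WT mice, one lower and the other higher. Each is the 250 bases before the RefSeq transcription start on GRCm38.p6, 5′ to 3′ on the gene's strand, and the capitals mark TTCCCA, the reverse complement of TGGGAA, the core letters bound by RBPJ, the DNA-binding partner of Notch. Fabp7 is a known Notch target in mouse radial glia. The Gfap stretch is chr11:102897201-102897450 on the minus strand, and the Fabp7 stretch is chr10:57784673-57784922 on the plus strand.
Gfap: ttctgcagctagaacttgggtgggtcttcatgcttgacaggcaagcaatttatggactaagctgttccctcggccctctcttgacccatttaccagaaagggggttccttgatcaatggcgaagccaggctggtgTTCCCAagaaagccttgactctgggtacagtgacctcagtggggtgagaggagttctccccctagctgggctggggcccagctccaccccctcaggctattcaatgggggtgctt
Fabp7: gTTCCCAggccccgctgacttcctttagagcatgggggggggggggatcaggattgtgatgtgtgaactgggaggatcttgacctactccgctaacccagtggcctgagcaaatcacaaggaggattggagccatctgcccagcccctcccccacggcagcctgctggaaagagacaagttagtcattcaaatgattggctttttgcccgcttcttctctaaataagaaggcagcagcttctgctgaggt
The match lies 115 to 110 bases before the start of Gfap and 249 to 244 bases before that of Fabp7. TGGGAA on either strand occurs in 21.6% of the 32851 mouse windows of this length in the RefSeq table, and among the members it also occurs upstream of Scn7a. Upstream windows were found for 8 of the 10 members. Of the other motifs searched on both strands, the SOX letters ACAAAG occur upstream of Apoe and in 16.5% of all windows. The AP-1 letters TGANTCA occur upstream of Gja1 and in 6.75% of windows. The STAT letters TTCNNNGAA occur upstream of Slc1a3 and in 7.02% of windows. TATAAA occurs upstream of Slc1a3 and of the second start site of Apoe, where 2 matches overlap each other, and in 12.4% of windows. These matches describe letters in the windows and nothing about binding.

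Depth ran from 26312614 to 42971823 assigned reads per library, of which the 10 genes together took between 0.495% and 0.827%. Ehmt2, counted over the whole gene, stood at 44.95 and 44.2 CPM (read counts scaled to a common library size, with TMM factors) in iKO CFA libraries, 34.0 and 31.6 CPM in iKO vehicle libraries, 74.2 and 61.3 CPM in WT CFA libraries and 74.4 and 65.4 CPM in WT vehicle libraries. Relative to WT mice, iKO mice had a log2 change of -1.09 under vehicle (adjusted p = 0.006546, edgeR), and of -0.60 under CFA, which did not pass (adjusted p = 0.154). Both WT vehicle libraries stood apart from the other 6. Their 6 nuclear noncoding RNAs summed to 4035 and 4013 CPM, against 75.7 to 126 CPM elsewhere. Summed immediate early genes were at 1061 and 923 CPM there and at 236 to 273 CPM in the other libraries. Plasma cell and lymphocyte genes summed to 2127 and 872 CPM there and to at most 52.6 CPM elsewhere. Summed skeletal muscle genes reached 404 CPM in WT vehicle library 1 and at most 7.06 CPM in any other. The WT CFA libraries differed from each other by a median of 0.60 (absolute log2) per gene, against 0.17 to 0.29 in the other groups. Libraries 1 and 2 of WT CFA had 26523 and 18600 CPM of sensory neuron genes, 8071 and 19590 CPM of myelinating Schwann genes and 139 and 391 CPM of macrophage genes. The tissue label matched its markers: all 15 sensory neuron genes and all 10 other satellite glia genes of the lists were detected. Of 9 genes listed for glia of the central nervous system, 6 were among the genes counted, and these summed to 31.6 to 50.0 CPM in every library. Olig1 was at 0 in 4 libraries and at most at 0.64 CPM in the rest.

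**Figure D1:**
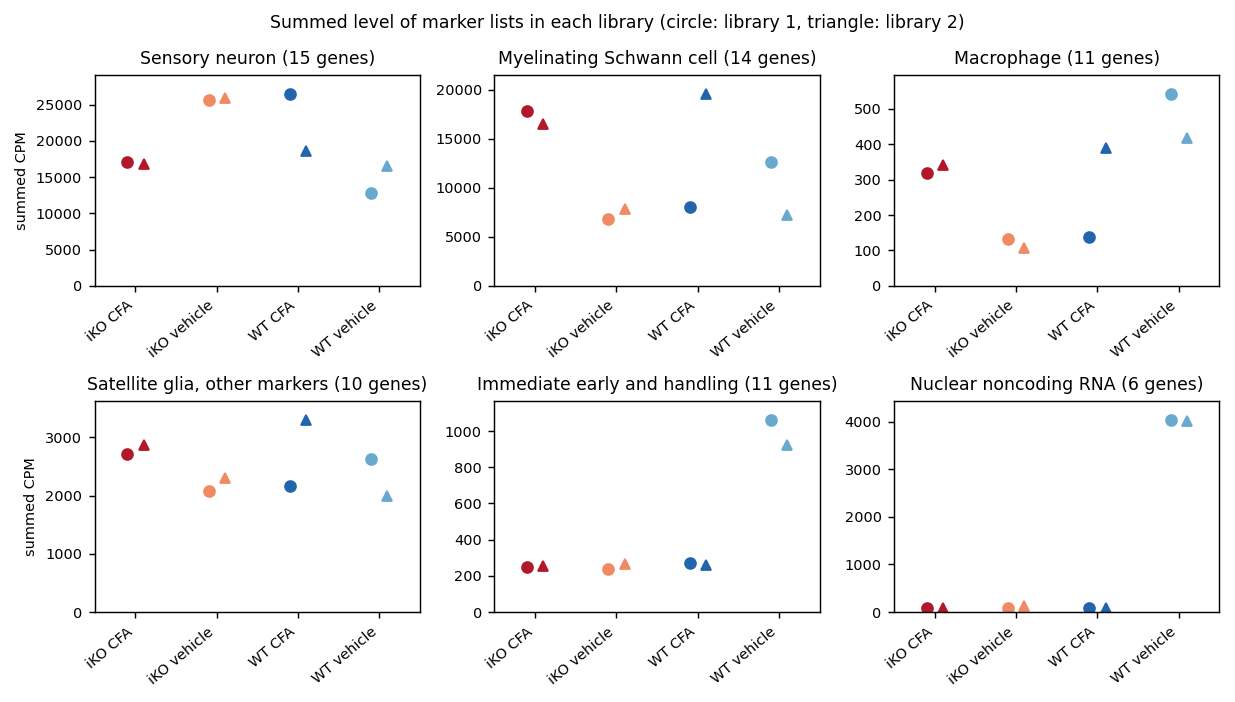
Summed CPM (vertical axis) of 6 marker lists in each library (horizontal axis, by group; circle for library 1, triangle for library 2). WT vehicle stands alone with 1061 and 923 CPM of immediate early genes and 4035 and 4013 CPM of nuclear noncoding RNA, and the triangle and circle of WT CFA lie far apart for neuron, myelin and macrophage genes.

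The members differed widely in level. Per kilobase of exon, the median over the 8 libraries was 1850 CPM per kb for Apoe, 243 for Fabp7, 155 for Glul, 68.7 for L1cam, 68.0 for Scn7a, 30.6 for Cdh19, 27.6 for Sox10, 10.5 for Gja1, 3.95 for Slc1a3 and 0.62 for Gfap. The highest library exceeded the lowest by 26.5-fold for Gfap and by 1.40-fold for Glul. Gfap was the scarcest member per length and the most variable, and Glul the steadiest.

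**Figure D2:**
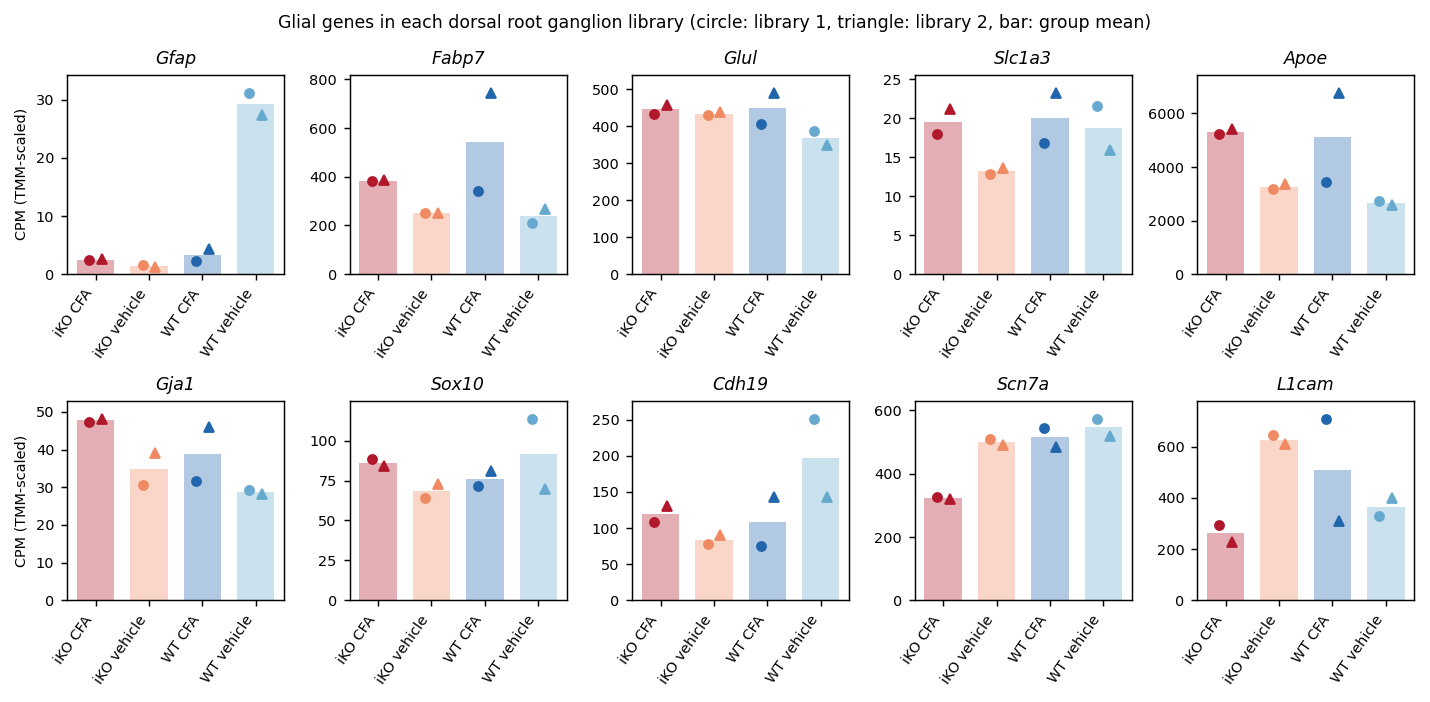
CPM (vertical axis, from 0) of each of the 10 genes in each library, with the groups iKO CFA, iKO vehicle, WT CFA and WT vehicle along the horizontal axis and 2 points a group. Gfap is high in the WT vehicle libraries alone, at 31.2 and 27.3 CPM, while L1cam is highest in both iKO vehicle libraries and WT CFA library 1.

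Across the 5 comparisons, Gfap passed the test in 3, Fabp7 and Cdh19 in 1 each and the other 7 genes in none. Each test was edgeR's quasi-likelihood test on all 8 libraries, with Benjamini-Hochberg adjustment over 20235 genes and a threshold of 0.05. With CFA in WT mice, 2 of 10 members were called, where 16.8% of all genes were: Fabp7 was higher, beside 8.12% of all genes, and Gfap lower, beside 8.71%. In iKO against WT mice under vehicle, 2 of 10 members were called, beside 17.6% of all genes, and both were lower, beside 9.33% of all genes. With CFA in iKO mice none of the 10 was called, beside 0.0395% of all genes (8 genes, while 5791 genes had an unadjusted p under 0.05 and DESeq2 called 3449). In iKO against WT mice under CFA none was called, beside 1.70% of all genes, while 2967 genes had an unadjusted p under 0.05; DESeq2 called 6.09% of genes and 1 member, Scn7a, with a log2 fold change of -0.68 and an adjusted p of 0.0003746. The CFA responses of the genotypes differed for 1 member, Gfap, beside 9.36% of all genes in either direction and 6.19% with a more positive response in iKO mice. CFA in WT mice and iKO against WT under vehicle share the WT vehicle libraries. In ganglion tissue as a whole, fewer glial cells and less RNA per glial cell cannot be told apart.

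The response to CFA in iKO mice depended on which libraries set the spread. Fitted on the 4 iKO libraries alone, 8 of the 10 members were called, beside 45.3% of 18326 genes. Apoe, Fabp7, Slc1a3, Cdh19, Gja1 and Sox10 were higher, beside 22.0% of genes, and Scn7a and L1cam lower, beside 23.4%. Neither Gfap (adjusted p = 0.0917) nor Glul (adjusted p = 0.438) was called. Leaving out either WT CFA library from the fit of all groups gave a median log2 change of 0.47 over the members, against 0.48 on 8 libraries. By library values, 9 of 10 members had both iKO CFA libraries on one side of both iKO vehicle libraries, as did 69.5% of all genes. A single member, Glul, overlapped. With these same 4 libraries alone, marker lists of other cells moved too: 13 of 15 sensory neuron genes fell and 1 rose, 13 of 14 myelinating Schwann genes rose, 10 of 11 macrophage genes rose and all 7 blood genes rose. Their part in the members' values was not tested.

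**Figure D3:**
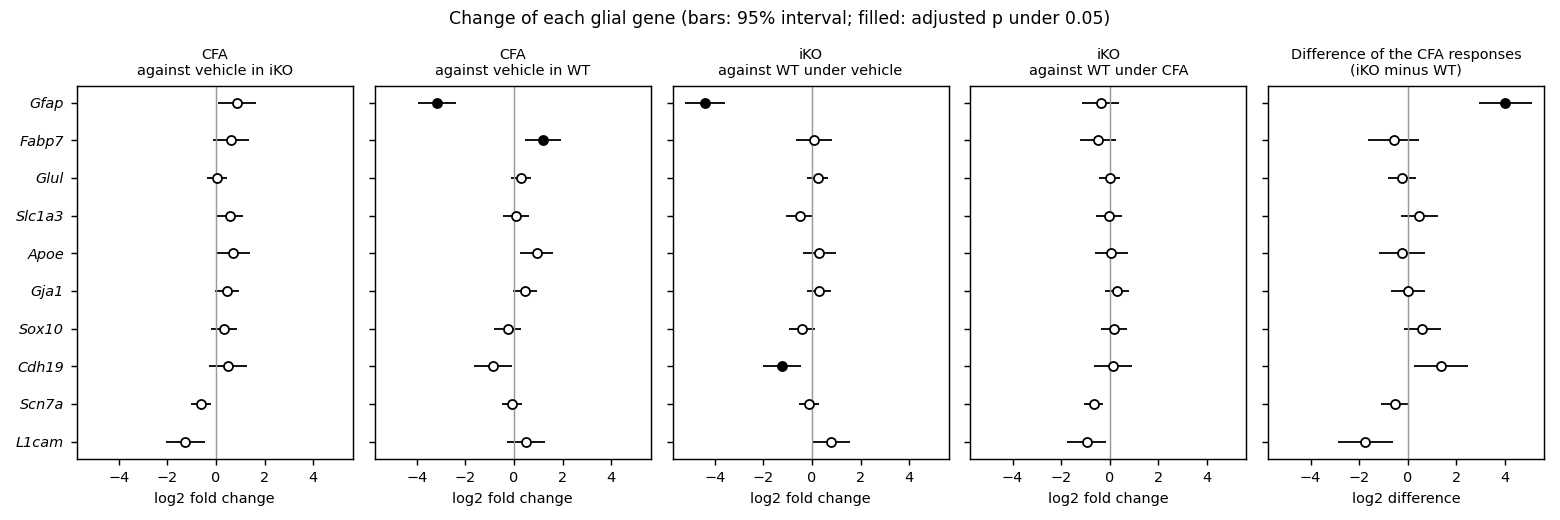
Log2 fold change (horizontal axis) of the 10 genes (vertical axis) in the 5 comparisons, with 95% intervals from the fit of 8 libraries, the first-named group over the second. Gfap lies at -4.39 for iKO against WT under vehicle and at -3.17 for CFA in WT, and at 4.02 for the difference of the CFA responses, each beyond the 95% intervals of the other 9 members.

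Gfap encodes the intermediate filament of reactive glia. It had 2.50 and 2.52 CPM (83 and 92 reads) in iKO CFA libraries and 1.59 and 1.18 CPM (65 and 41 reads) in iKO vehicle libraries. In WT CFA libraries it had 2.24 and 4.31 CPM (84 and 126 reads), against 31.2 and 27.3 CPM (932 and 918 reads) in WT vehicle libraries. Both WT vehicle libraries lay far above the other 6, of which the highest had 4.31 CPM, and WT CFA overlapped iKO CFA. Under vehicle, Gfap was 21.0-fold lower in iKO than in WT mice (log2 fold change -4.39 ± 0.36 SE, adjusted p = 0.0005307, edgeR). It was 8.97-fold lower with CFA than with vehicle in WT mice (-3.17 ± 0.34, adjusted p = 0.001695, edgeR). In iKO mice the change with CFA was 0.85 ± 0.34 and did not pass (adjusted p = 0.149, edgeR), and the responses of the genotypes differed by 4.02 ± 0.48 (adjusted p = 0.00357, edgeR). These 3 calls held under every alternative fit, each WT vehicle library left out included. The WT vehicle libraries are also the ones with high nuclear noncoding RNA, immediate early and lymphocyte genes, and the part of this in the Gfap values was not tested.

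Of 14 other genes of glial reactivity, 4 fell and none rose with CFA in WT mice, where 8.71% of all genes fell and 8.12% rose (median log2 fold change -0.37, against -0.03 over all genes). Socs3, an inhibitor of cytokine signalling through STAT3, had 16.3 and 16.0 CPM in iKO CFA, 11.2 and 13.7 CPM in iKO vehicle, 11.9 and 12.7 CPM in WT CFA and 102 and 94.8 CPM in WT vehicle libraries. Like Gfap it was high in the WT vehicle libraries alone, and it fell by 2.998 on the log2 scale with CFA in WT mice (adjusted p = 0.0001999, edgeR). The chemokine gene Cxcl10 fell by 3.81, the protease inhibitor gene Timp1 by 1.95 and the metalloreductase gene Steap4 by 0.91. Without WT CFA library 2 the changes were -4.66 for Cxcl10 and -3.23 for Timp1, and Timp1 was at -1.27 without WT CFA library 1. Under vehicle, 4 of the 14 fell in iKO against WT mice and none rose, namely Socs3 (-2.98), Cxcl10 (-3.15), Steap4 (-1.38) and Cd109 (-0.95), with a median of -0.75 against 0.01 over all genes, of which 9.33% fell and 8.28% rose. There Cxcl10 was at -5.22 without iKO vehicle library 1 and -2.34 without library 2. Other lists fell too: 10 of 11 immediate early and all 9 plasma cell and lymphocyte genes with CFA in WT mice. In iKO against WT mice under vehicle, 10 of 11 macrophage genes fell. The part of these lists in the values of the reactivity genes was not tested. The CFA responses of the genotypes differed for Socs3, Cxcl10, Timp1 and Steap4, each more positive in iKO mice, as for 6.19% of all genes. Without WT vehicle library 1, Socs3 was the only one of these list genes whose calls held in each of the 3 comparisons.

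Fabp7 encodes a fatty acid binding protein of immature and satellite glia. Its level was 384 and 385 CPM in iKO CFA, 252 and 251 CPM in iKO vehicle, 341 and 746 CPM in WT CFA and 209.8 and 267 CPM in WT vehicle libraries. From low to high, WT vehicle and iKO vehicle overlapped, and iKO CFA and WT CFA overlapped above them. With CFA it was 2.28-fold higher in WT mice (log2 1.187 ± 0.33, adjusted p = 0.0416, edgeR). Its size rested on the WT CFA libraries: the log2 change was 0.51 without library 2 and 1.64 without library 1. The call was lost in 9 of 16 alternatives, among them leaving out either WT vehicle library (adjusted p = 0.276 and 0.112) and fitting the 4 WT libraries alone (0.185). Between the WT CFA libraries, library 2, with 746 CPM of Fabp7, was the richer in myelinating Schwann and macrophage genes. Macrophage genes were at 391 CPM in it, but at 543 and 418 CPM in the WT vehicle libraries, where Fabp7 was low. Myelinating Schwann genes were at 19590 CPM in WT CFA library 2 and at 17879 and 16528 CPM in the iKO CFA libraries. The part of either list in the Fabp7 values was not tested. The change in iKO mice was 0.61 ± 0.33 (adjusted p = 0.248, edgeR). It was 0.64 ± 0.06 on the iKO libraries alone (adjusted p = 5.128e-05, edgeR). The genotypes did not differ detectably under vehicle (0.08, 95% interval -0.66 to 0.82) or under CFA (-0.50, -1.24 to 0.25). Of the 3 other fatty acid binding protein genes tested, Fabp4, a gene of fat cells, macrophages and endothelium, had 25.4 and 29.2 CPM in iKO CFA, 1.62 and 0.72 CPM in iKO vehicle, 2.003 and 4.38 CPM in WT CFA and 4.32 and 1.88 CPM in WT vehicle libraries. Fabp4 was high in the iKO CFA libraries alone, and under CFA it was 8.59-fold higher in iKO than in WT mice (adjusted p = 0.0275, edgeR). That Fabp4 call was lost in 5 of 16 alternatives: without either iKO CFA library, on the 4 CFA libraries alone, with the replicate block and with the stricter filter. Its log2 change was 3.10, and 3.76 without WT CFA library 2. Fabp3 and Fabp5 passed no test.

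Glul and Slc1a3 handle glutamate: glutamine synthetase converts it to glutamine, and the transporter GLAST takes it up. Glul had 434 and 457 CPM in iKO CFA, 431 and 437 CPM in iKO vehicle, 407 and 491 CPM in WT CFA and 388 and 350.3 CPM in WT vehicle libraries. WT vehicle was lowest, the other 3 groups overlapped one another, and no comparison passed. For iKO CFA against iKO vehicle the 95% interval of the log2 fold change was -0.38 to 0.46. Slc1a3 had 17.96 and 21.2 CPM in iKO CFA, 12.8 and 13.6 CPM in iKO vehicle, 16.8 and 23.3 CPM in WT CFA and 21.6 and 15.9 CPM in WT vehicle libraries. Its iKO vehicle libraries were below all others, which overlapped. The log2 difference of Slc1a3 between iKO and WT mice under vehicle was -0.51 ± 0.24 (adjusted p = 0.167, edgeR), and its change with CFA in iKO mice was 0.57 ± 0.24 (adjusted p = 0.161, edgeR).

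Of 12 other genes of glutamate handling, 1 rose and 2 fell with CFA in WT mice, where 8.12% of all genes rose and 8.71% fell. Slc17a7, the vesicular glutamate transporter of neurons, rose by 1.07, and the amino acid transporter gene Slc1a5 and the glial transporter gene Slc1a2 fell by 1.501 and 0.95. Under vehicle, 2 rose in iKO against WT mice, Slc17a7 (1.56) and the amino acid transporter gene Slc1a4 (0.90), and 1 fell, Slc1a5 (-1.71). Across all genes 8.28% rose and 9.33% fell under vehicle. Slc1a5 had 26.3 and 23.8 CPM in iKO CFA, 15.4 and 21.2 CPM in iKO vehicle, 17.9 and 24.4 CPM in WT CFA and 64.7 and 55.1 CPM in WT vehicle libraries. It was another gene high in the WT vehicle libraries alone, and its call under vehicle held in every alternative, while its call with CFA in WT mice did not hold once WT vehicle library 1 was left out (adjusted p = 0.0777, edgeR).

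Apoe encodes apolipoprotein E, a lipid carrier secreted by satellite glia and macrophages, and was the most abundant member. It had 5222 and 5431 CPM in iKO CFA, 3189 and 3350.5 CPM in iKO vehicle, 3449 and 6777 CPM in WT CFA and 2749 and 2588 CPM in WT vehicle libraries. In both genotypes each CFA library was above each vehicle library. The log2 change with CFA was 0.70 ± 0.30 in iKO mice (adjusted p = 0.166, edgeR) and 0.94 ± 0.30 in WT mice (adjusted p = 0.0648, edgeR), and neither passed. In WT mice it was 0.37 without WT CFA library 2 and 1.34 without library 1, the second of which passed (adjusted p = 0.000118, edgeR), and DESeq2 also called it (adjusted p = 0.01878). On the iKO libraries alone the change in iKO mice was 0.73 ± 0.06 (adjusted p = 1.581e-05, edgeR). The responses of the genotypes differed by -0.23, with a 95% interval of -1.20 to 0.73. Macrophage genes, at 319 and 343 CPM in iKO CFA and 132 and 106 CPM in iKO vehicle libraries, were higher where Apoe was higher in iKO mice. In WT mice they were at 139 and 391 CPM with CFA and at 543 and 418 CPM with vehicle, where Apoe was lowest. The part of the macrophage genes in the Apoe values was not tested. With CFA in WT mice, 2 of 13 other lipoprotein genes fell and none rose, beside 8.71% and 8.12% of all genes. These were the cholesterol exporter gene Abca1 (-1.22) and the receptor gene Lrp1 (-0.63). In iKO against WT mice under vehicle, Clu (1.29), which encodes the lipid carrier clusterin, rose, and Abca1 (-1.05) and Lrp1 (-0.63) fell. In that comparison 8.28% of all genes rose and 9.33% fell.

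Gja1 encodes connexin 43, a channel protein that couples satellite glia. It had 47.3 and 48.1 CPM in iKO CFA, 30.6 and 39.1 CPM in iKO vehicle, 31.7 and 46.0 CPM in WT CFA and 29.2 and 28.1 CPM in WT vehicle libraries. The iKO CFA libraries were the highest and the WT vehicle libraries the lowest, with iKO vehicle and WT CFA overlapping between them. The log2 change with CFA was 0.45 ± 0.22 in iKO mice (adjusted p = 0.205, edgeR) and 0.44 ± 0.22 in WT mice (adjusted p = 0.195, edgeR). The difference between these was 0.01, with a 95% interval of -0.69 to 0.71. Of 14 other gap junction and potassium buffering genes, 2 rose and 1 fell with CFA in WT mice. Among all genes, 8.12% rose and 8.71% fell. Kcnj10 (0.90) and Kcnj16 (1.28), which encode inward rectifier potassium channel subunits, rose and the purine receptor gene P2rx7 (-1.14) fell. Kcnj10, which encodes the satellite glia channel Kir4.1, had 103 and 111 CPM in iKO CFA, 98.4 and 94.7 CPM in iKO vehicle, 106 and 138 CPM in WT CFA and 67.6 and 62.7 CPM in WT vehicle libraries. WT vehicle was the low group and the other 6 lay between 94.7 and 138 CPM. Under vehicle, Kcnj16 (1.57) and the neuronal connexin gene Gjd2 (2.37) were among 3 genes that rose in iKO against WT mice. P2rx7 (-1.31) and the vascular connexin gene Gja4 (-2.13) fell. Under vehicle 8.28% of all genes rose and 9.33% fell. Gjd2 was at 1.64 without WT vehicle library 1 and 3.89 without library 2, and Gja4 at -1.46 without iKO vehicle library 1 and -3.34 without library 2.

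Sox10 encodes the transcription factor that specifies neural crest glia. It had 88.6 and 83.9 CPM in iKO CFA, 64.0 and 72.8 CPM in iKO vehicle, 71.7 and 80.7 CPM in WT CFA and 113 and 69.9 CPM in WT vehicle libraries. The WT vehicle libraries held both the highest value and one of the lowest, and overlapped every other group. No Sox10 comparison passed on 8 libraries; its change with CFA was 0.33 ± 0.24 in iKO mice (adjusted p = 0.374, edgeR), called at 0.36 ± 0.09 on the iKO libraries alone (adjusted p = 0.0114). In WT mice the change was -0.27, and 0.12 without WT vehicle library 1. With CFA in WT mice, 2 of 15 other neural crest glia regulators rose and 1 fell, beside 8.12% and 8.71% of all genes. The endothelin receptor gene Ednrb (0.87) and the Notch effector gene Hes5 (1.58) rose, and Ets1 (-1.02) fell. Under vehicle, 3 of the 15 fell in iKO against WT mice and none rose, beside 9.33% and 8.28% of all genes. The transcription factor gene Ets1 fell by 1.25, the Notch receptor gene Notch1 by 0.75 and Sox6, a relative of Sox10, by 0.91.

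Cdh19 encodes a cadherin of Schwann cell precursors and their glial descendants. It had 109 and 130.04 CPM in iKO CFA, 77.6 and 90.8 CPM in iKO vehicle, 75.5 and 143 CPM in WT CFA and 251 and 142 CPM in WT vehicle libraries. WT vehicle library 1 was the highest, and WT CFA library 2 was level with WT vehicle library 2. Under vehicle, Cdh19 was 2.34-fold lower in iKO than in WT mice (log2 -1.22 ± 0.35, adjusted p = 0.0432, edgeR). The call was lost in 6 of 16 alternatives, and without WT vehicle library 1 the change was -0.77 (adjusted p = 0.337, edgeR). With CFA it changed by 0.51 ± 0.34 in iKO mice (adjusted p = 0.353, edgeR) and by -0.85 ± 0.34 in WT mice (adjusted p = 0.122, edgeR). The responses differed by 1.36 ± 0.49 (adjusted p = 0.103, edgeR). WT vehicle library 1 also carried more myelinating Schwann RNA than library 2, at 12663 against 7260 CPM, and the skeletal muscle genes named above. Myelinating Schwann RNA was higher still in WT CFA library 2 (19590 CPM) and the iKO CFA libraries (17879 and 16528 CPM), where Cdh19 was lower. The part of these genes in the Cdh19 values was not tested.

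Of 14 myelinating Schwann genes, only Egr2, the transcription factor gene that drives myelination, passed with CFA in WT mice, beside 16.8% of all genes. Its levels were 18.05 and 15.8 CPM in iKO CFA, 13.1 and 14.6 CPM in iKO vehicle, 10.98 and 21.2 CPM in WT CFA and 68.2 and 41.4 CPM in WT vehicle libraries. WT vehicle was highest, and Egr2 fell by 1.77 with CFA in WT mice and by 1.99 in iKO against WT mice under vehicle. Summed immediate early genes were also highest in WT vehicle libraries (1061 and 923 CPM). Summed myelinating Schwann genes were at 12663 and 7260 CPM there, below the 17879 and 16528 CPM of iKO CFA libraries. The part of the immediate early pattern in the Egr2 values was not tested. Gldn, which encodes gliomedin of the node of Ranvier, also fell in iKO against WT mice under vehicle, by 1.32. Those 2 of 14 stood beside 9.33% of all genes. Of 10 other markers of non-myelinating Schwann cells, Gfra3 (1.08) and Lpar1 (1.45) rose with CFA in WT mice, 2 of 10 beside 8.12% of all genes. Lpar1, a receptor for lysophosphatidic acid, lost its call in 9 of 16 alternatives and changed by 0.55 without WT CFA library 2 and by 1.9999 without library 1. Under vehicle, Gfra3 (1.03) and Ngfr (1.42) rose in iKO against WT mice, 2 of 10 beside 8.28% of all genes. Gfra3 and Ngfr encode growth factor receptors that sensory neurons also make. The 10 markers summed to 4472 and 4467 CPM in iKO CFA, 3347 and 3525 CPM in iKO vehicle, 3547 and 5430 CPM in WT CFA and 4029 and 3403 CPM in WT vehicle libraries.

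Scn7a encodes Nax, a sodium-sensing relative of the voltage-gated sodium channels. It had 326 and 321 CPM in iKO CFA, 508 and 489.8 CPM in iKO vehicle, 546 and 486 CPM in WT CFA and 573 and 520.2 CPM in WT vehicle libraries. Both iKO CFA libraries were below all 6 others. The log2 change with CFA was -0.63 ± 0.18 in iKO mice (adjusted p = 0.101, edgeR), and the 4 iKO libraries alone gave -0.60 ± 0.06 (adjusted p = 7.331e-05, edgeR). Under CFA the genotypes differed by -0.67 ± 0.18 (adjusted p = 0.119, edgeR). In WT mice the change with CFA was -0.08, with a 95% interval of -0.49 to 0.32, and the responses differed by -0.54 (-1.11 to 0.03). Summed sensory neuron genes were also lower in iKO CFA (17149 and 16836 CPM) than in iKO vehicle libraries (25607 and 25881 CPM). They were at 12867 and 16524 CPM in WT vehicle libraries, where Scn7a was at 573 and 520.2 CPM. The part of the neuron genes in the Scn7a values was not tested.

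L1cam encodes a cell adhesion molecule of axons and of the Schwann cells that ensheathe them without myelin. It had 296 and 228 CPM in iKO CFA, 644 and 609 CPM in iKO vehicle, 709 and 310.4 CPM in WT CFA and 328 and 399 CPM in WT vehicle libraries. Both iKO CFA libraries were the lowest, and WT CFA spanned the range of the vehicle groups. With CFA it changed by -1.26 ± 0.35 in iKO mice (adjusted p = 0.101, edgeR), and the iKO libraries alone gave -1.23 ± 0.11 (adjusted p = 3.977e-05, edgeR). Its CFA response differed between the genotypes by -1.75 ± 0.50, which missed the threshold (adjusted p = 0.0595, edgeR). It was -1.03 without WT CFA library 1 and -2.23 without library 2, and passed in both of these fits, with DESeq2 and with no filter, 4 of 15 alternatives. The summed sensory neuron genes stood at 17149 and 16836 CPM in iKO CFA, 25607 and 25881 CPM in iKO vehicle, 26523 and 18600 CPM in WT CFA and 12867 and 16524 CPM in WT vehicle libraries. Both L1cam and the neuron genes were highest in the iKO vehicle libraries and WT CFA library 1, and the part of the neuron genes in the L1cam values was not tested. Of 17 other genes of the L1 family and axon-glia adhesion, Cntnap2 (0.86), which encodes a neuronal partner of contactins, rose with CFA in WT mice. This was 1 of 17, beside 8.12% of all genes. In iKO against WT mice under vehicle, Cntnap2 (1.37), the cadherin gene Cdh7 (1.87) and the adhesion gene Cadm3 (0.93) rose. These 3 of 17 stood beside 8.28% of all genes. On the iKO libraries alone, 15 of the 17 fell and 1 rose with CFA, where 23.4% of all genes fell and 22.0% rose and 13 of 15 sensory neuron genes fell.

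The other satellite glia markers gave the most calls of any glial list with CFA in WT mice: 5 of 10 rose and none fell, with a median log2 fold change of 0.67, where 8.12% of all genes rose and 8.71% fell. In that comparison 4 of 15 sensory neuron genes rose (median 0.50), 10 of 11 immediate early genes fell and all 6 nuclear noncoding RNAs fell, and their part was not tested. The 5 satellite glia markers that rose were Hey2 (1.194), a Notch effector gene, Fbxo2 (1.08), Bcan (1.01), Kcnj10 and Ednrb. Fbxo2, which encodes a glycoprotein-binding ubiquitin ligase subunit, had 367 and 391 CPM in iKO CFA, 364 and 397 CPM in iKO vehicle, 358 and 442 CPM in WT CFA and 165 and 215 CPM in WT vehicle libraries. Hey2 had 41.9 and 50.5 CPM in iKO CFA, 41.9 and 35.3 CPM in iKO vehicle, 35.8 and 50.8 CPM in WT CFA and 19.8 and 18.02 CPM in WT vehicle libraries. For both genes the WT vehicle libraries were the lowest and the other 3 groups overlapped. In iKO against WT mice under vehicle, Bcan (1.11), which encodes the proteoglycan brevican, Fbxo2 (1.005) and Hey2 (1.03) rose. That was 3 of 10, beside 8.28% of all genes. Of the 22 genes of the 10 glial lists named for a call with CFA in WT mice, 21 lost it without WT vehicle library 1. Of the 27 so named for iKO against WT under vehicle, 25 lost it, and Socs3 and Slc1a5 held in every alternative. With CFA in iKO mice none of the 10 glial lists had a gene that passed on 8 libraries. On the iKO libraries alone 3 of the 10 satellite glia markers rose and 1 fell, beside 22.0% and 23.4% of all genes.

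**Figure D4:**
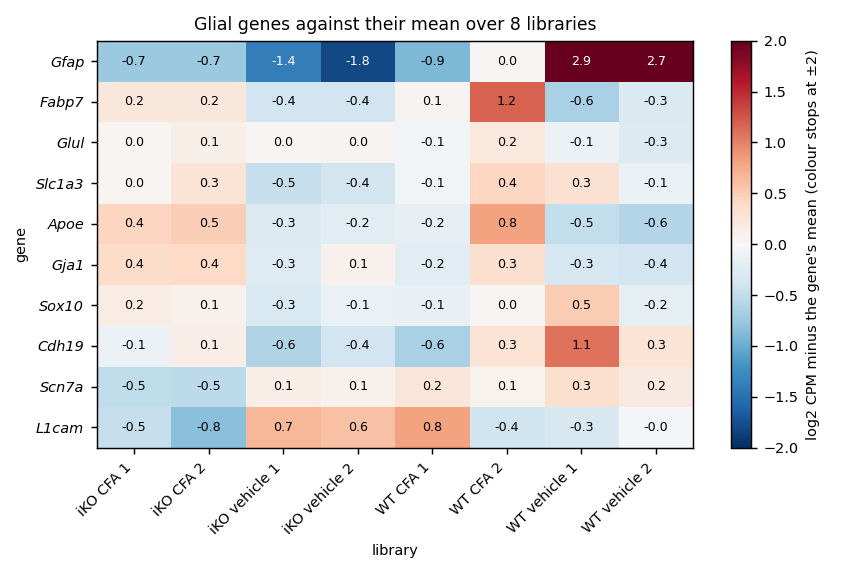
Log2 CPM of each gene (rows) in each library (columns) minus the gene's mean over the 8 libraries, as colour and printed value. Gfap stands at 2.9 and 2.7 in the WT vehicle libraries and at most at 0.0 elsewhere, Fabp7 and Apoe are highest in WT CFA library 2, and L1cam is highest in the iKO vehicle libraries and WT CFA library 1.

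The genes whose log2 CPM tracked each member most closely over the 8 libraries were ranked by Pearson's r among 10492 or 10493 genes of sufficient level. These values describe 4 group levels and shared libraries and carry no test. Gfap was closest to Rdh10 (r = 0.996), Ankrd44 (0.993) and Unc13b (0.993). Cdh19 was closest to Gldn (0.989), Afap1l2 (0.988) and Spp1 (0.976), and L1cam to the axonal kinesin gene Kif1a (0.997), Ap3b2 (0.993) and Pfkm (0.993). Apoe was closest to Slc35b2 (0.997), Gpx4 and Cox7a2l (both 0.997), and Fabp7 to Mterf4 (0.985), Memo1 (0.982) and Fam32a (0.980). The closest gene was Serpinb1a for Gja1 (0.992), Nr3c1 for Sox10 (0.983), Il13ra1 for Slc1a3 (0.979), Prss35 for Glul (0.979) and Xiap for Scn7a (0.971). None of the 3 closest genes of a member was itself a member. Gfap could not have been one, because only genes with a mean log2 CPM of at least 3 were ranked.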

How the data were processed

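RNA of dorsal root ganglia from 8 libraries was sequenced, and raw read counts per gene were used as deposited by the authors. Per the submitters' processing notes the tools were HISAT2 2.2.1, SAMtools 1.19.2, featureCounts 2.0.6 and DESeq2, with builds GRCm39 and mm39. The annotation and whether strand was used are not given in the sources used here, so reads of overlapping and antisense genes cannot be told apart.

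Genes were filtered with edgeR's default filter and counts scaled with TMM. The main test was the quasi-likelihood test of edgeR 4.0.16 (R 4.3.3) on the 4 groups of 2 libraries, with Benjamini-Hochberg adjustment over 20235 genes and a threshold of 0.05. Sums and levels are in CPM. Alternatives were DESeq2 1.42.0, RLE and upper quartile scaling, the newer edgeR fit, no filter, a filter of 10 CPM in 2 libraries, the compared groups alone, a replicate block and leaving out each library. The genes named are the members in every comparison, for each member the 3 genes with the highest correlation, and in each list up to 4 genes with the smallest p, together with other markers of the lists. Ehmt2 is given as the targeted gene. Exon lengths for the per-kilobase values came from GENCODE vM21, and upstream sequences from RefSeq on GRCm38.p6, which is not the authors' build. The method was tested on simulated data with the same spread for every gene and group. That test therefore does not cover the wider spread of the WT CFA libraries. Libraries of a group differed by more than sampling noise. Intervals cover the spread between libraries of this series. An item of the gene lists is not reported here. The members and the gene lists were chosen with earlier results of these data known.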

Additional observations from a re-analysis of the deposited data

Results flagged for a closer look

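The CFA response of Gfap differed between the genotypes. The log2 change with CFA was 0.85 in iKO mice and -3.17 in WT mice, a difference of 4.02 (adjusted p = 0.00357, edgeR's test of the difference, all 15 alternatives past the threshold). The same test of the difference passed for 17 genes of the glial lists, and for 9.36% of all genes. Per list, 4 of 14 glial reactivity genes and 3 of 17 L1 family and axon-glia adhesion genes passed. For myelinating Schwann genes it was 1 of 14, and for lipoprotein genes 0 of 13. Among the 17, only Socs3 passed in every alternative that could be fitted for it. The difference, iKO minus WT, was 3.37 for Socs3, 4.95 for Cxcl10, 3.18 for Timp1 and 1.74 for Steap4. It was -0.91 for Ptprz1, -1.40 for Gfra3, -2.15 for Hes5, 0.97 for Ets1 and 2.06 for Egr2. It was -2.03 for Slc17a7, 1.96 for Slc1a5, -1.40 for Slc1a4 and 1.65 for P2rx7. It was 4.49 for Fabp4, -1.85 for Cntnap2, -2.21 for Cntnap1 and -1.55 for Cntn1. Without 1 library at a time, Cxcl10 ranged from 4.14 (iKO vehicle library 2) to 7.02 (iKO vehicle library 1), and was 5.79 without WT CFA library 2. Timp1 was 2.49 without WT CFA library 1 and 4.45 without library 2, and Cntnap1 was -1.42 without WT CFA library 1. Fabp4 was 3.79 without WT vehicle library 1, 5.13 without WT CFA library 2 and 5.198 without iKO vehicle library 1. Without WT vehicle library 1, 16 of these 17 differences no longer passed. The WT vehicle libraries, which enter each of these differences, stood apart in nuclear noncoding RNA, immediate early and lymphocyte genes, and their part was not tested.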

How the results depend on the processing

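With CFA in iKO mice, where 8 genes and no member were called, DESeq2 called 3449 genes and 2 members, the newer edgeR fit 181 genes, no filter 510, the iKO libraries alone 8309 and 8 members, and the replicate block and the stricter filter 0 each. With CFA in WT mice (3406 genes, 2 members), DESeq2 called 5154 genes, and the WT libraries alone 754 and 1 member. The stricter filter and upper quartile scaling left 1 member, Gfap, and lost Fabp7 (adjusted p = 0.0739 and 0.0543, edgeR). Under vehicle (3564 genes, 2 members), the 2 groups alone gave 8179 genes and 4 members, and the replicate block kept 1 member, Gfap. Under CFA (345 genes, no member), DESeq2 called 1232 genes and 1 member, the newer edgeR fit 542, the 2 groups alone 33, the replicate block 207 and the stricter filter 112. For the difference of the CFA responses (1895 genes, 1 member), DESeq2 called 4133 genes and 3 members, the replicate block 1062 and the stricter filter 1193. With no filter 2 members were called, Gfap and L1cam. The difference could not be fitted on 2 groups alone. The causes were not tested.

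Leaving out 1 library at a time gave 0 to 6951 genes and 0 to 7 members with CFA in iKO mice, and 259 to 7474 genes and 1 to 5 members with CFA in WT mice. It gave 394 to 8464 genes and 1 to 4 members for iKO against WT under vehicle, and 73 to 5819 genes and 0 to 4 members under CFA. For the difference of the responses it gave 228 to 8303 genes and 1 to 4 members. A lone library left in a group was assumed to vary like the others. The highest counts came without a WT CFA library.

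Same-numbered libraries did not deviate together (r from -0.144 to 0.027), so the numbers were not taken to pair them. A crossed replicate block for the WT groups, chosen after seeing the data, called 2910 genes and 1 member with CFA in WT mice.

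The sign changed for the following log2 values, none past the threshold in the fit of all libraries. For CFA in WT mice, Slc1a3 was -0.046 with the stricter filter, and ranged from -0.16 to 0.33 when 1 library was left out, as did Sox10 from -0.58 to 0.12 and L1cam from -0.24 to 0.96. Under vehicle, Fabp7 was -0.10 with the stricter filter and ranged from -0.10 to 0.24 over the left-out libraries. Under CFA, Glul was 0.036 with upper quartile scaling, 0.043 with the stricter filter, 0.02 without iKO CFA library 1 and 0.12 without WT CFA library 2. Slc1a3 was 0.0097 with upper quartile scaling, 0.016 with the stricter filter, 0.08 without iKO CFA library 1 and 0.21 without WT CFA library 2. Leaving out 1 library moved Gfap between -0.78 and 0.16, Fabp7 between -0.95 and 0.17, Glul between -0.14 and 0.12, Apoe between -0.35 and 0.62 and Cdh19 between -0.25 and 0.66, with the ends at one or other WT CFA library. For the difference of the responses, Fabp7 ranged from -1.04 to 0.086, Apoe from -0.64 to 0.32 and Gja1 from -0.23 to 0.30 when 1 library was left out, and Gja1 was -0.16 without iKO vehicle library 1. Gfap, at 41 to 932 reads a library, is the member most limited by depth.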
